A study of Rattus norvegicus with 64 samples.

Results

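Bromobenzene is an aromatic solvent and a model toxicant of liver and kidney. Its oxidation by P450 enzymes in liver yields epoxides and phenols, and glutathione conjugates of bromohydroquinone formed from these travel in the blood to the kidney, where the proximal tubule takes them up. The transcripts described here were lower in kidney 10 h after bromobenzene while their mean levels in liver stayed within a set limit of those of vehicle rats. They number 92 of the 31715 transcripts in the deposited tables.

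RNA from liver and kidney was sequenced from Sprague Dawley rats, an outbred laboratory stock, that had received 0.4 g/kg bromobenzene once or 2% saline as vehicle, and that were sampled 5 h or 10 h later. Each organ, time and agent has 8 libraries, 64 in all, and the series description counts 32 rats. The sources used here state neither sex nor age of the rats, and liver and kidney libraries are not tied to each other by animal in the labels. The tissue labels name liver and kidney, although the protocol text speaks of cultured cells. Whether the replicates differ by more than library preparation is not stated beyond the count of rats, so p-values measure the spread between these libraries.

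Members were chosen from measured values. Levels were TPM, relative transcript abundances corrected for transcript length and scaled to the same sum in every library, and were compared as log2(TPM + 0.5), so that differences of low transcripts are understated. A member had a mean of at least 2 TPM over the 32 kidney libraries, a 10 h kidney mean at least 0.3 lower after bromobenzene, at most 3 of the 64 bromobenzene-vehicle library pairs at 10 h with bromobenzene higher, and liver differences under 0.4 in either direction at 5 h and at 10 h. Of 15109 kidney transcripts at 2 TPM or more, 125 met the kidney conditions, and the liver conditions left out 33 of these. Among those 33, 23 were lower in bromobenzene liver at 10 h by at least 0.4, 4 were higher by as much, and 6 exceeded the limit at 5 h only. Members nearest to the limits stood at a 10 h kidney difference of -0.30, a liver difference of 0.40 in size at each time and 2.05 TPM, and 23 members stood at 3 pairs. The nearest transcripts outside stood at -0.297 in kidney, 0.412 and 0.401 in liver at 10 h and 5 h, 1.75 TPM and 4 pairs.

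The tables identify transcripts by Ensembl IDs alone. The gene table used here carries no Ensembl IDs, so that 0 of the 92 could be looked up in it, and members are given by their rank, from the most negative 10 h kidney difference down, and the first and second also by ID. No gene name, function, promoter or kidney cell marker could be attached to them, and the tissue labels could not be checked against marker genes. In bulk kidney RNA, fewer cells of one type and less RNA per cell cannot be told apart.

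The 10 h kidney differences of members ran from -1.57 to -0.30 with a median of -0.38, against a median of -0.05 over all 15109 kidney transcripts. These values chose the members and are given as a description. Most differences were small, with 52 of 92 members above -0.4, 26 at or below -0.5 and 1 at or below -1. In 33 members all 8 bromobenzene kidneys were below all 8 vehicle kidneys, a separation that 0.556% of the 15109 kidney transcripts showed in the same direction and 0.0728% in the other. At most 3 crossing pairs, the condition that all members meet, were found in 2.09%. Of the members that overlapped, 15 had 1 crossing pair of libraries, 21 had 2 and 23 had 3. In each of the 8 bromobenzene kidneys at 10 h, 92 of 92 members were below the vehicle mean, against 46.4% to 68.6% of all kidney transcripts. The conditions on members nearly fix this count.

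How many transcripts qualify depended on the scaling. On counts per mega-count scaled by TMM (trimmed mean of M-values, which assumes that most transcripts do not change), the median 10 h kidney difference over all kidney transcripts moved from -0.05 to 0.00. The same conditions then chose 44 transcripts, 42 of them among the 92, and all 92 still had a negative 10 h difference. The mirrored conditions, with bromobenzene higher, chose 10 transcripts on the TPM scale and 27 on the TMM scale.

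The member ranked first, ENSRNOT00000011906.6 (3445 bases), had the most negative mean difference. In vehicle kidneys at 10 h its lowest, median and highest levels were 12.7, 23.1 and 37.97 TPM. In bromobenzene kidneys at 10 h they were 5.54, 6.84 and 11.4 TPM, which did not overlap with vehicle and gave a 2.98-fold lower mean on the log2(TPM + 0.5) scale. At 5 h vehicle kidneys held 4.998, 8.38 and 11.6 TPM and bromobenzene kidneys 5.695, 9.21 and 13.5 TPM. The 10 h vehicle group had the highest mean, with its lowest library below the highest of 5 h bromobenzene, and the 10 h bromobenzene group lay within the range of the 5 h libraries. In vehicle livers the transcript was at 0.384 ± 0.123 TPM (SD, n = 8) at 5 h and 0.307 ± 0.0763 TPM at 10 h.

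**Figure D1:**
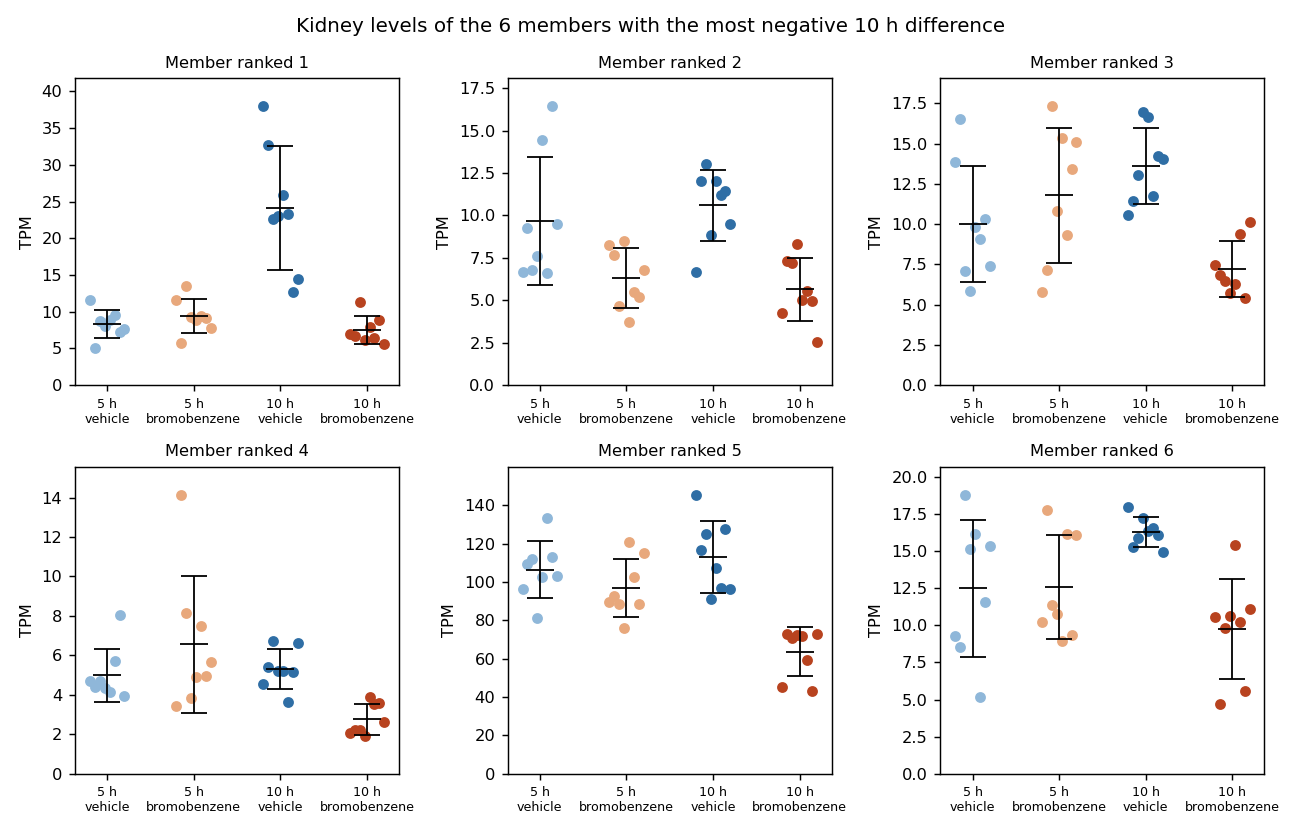
TPM in each kidney library for the 6 members with the most negative 10 h difference, by group (points are libraries, bars the mean and SD, n = 8 each). All 6 have their lowest mean in 10 h bromobenzene kidneys, and the choice of members used these libraries. The mean is highest in 10 h vehicle kidneys for all but the member ranked 4. The member ranked 1 runs from 12.7 to 37.97 TPM there.

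ENSRNOT00000092326.1, ranked second, is a short transcript of 389 bases with few reads behind it, as few as 9.6 estimated counts in one 10 h kidney library. Its lowest, median and highest levels at 10 h were 6.65, 11.3 and 13.05 TPM in vehicle kidneys and 2.54, 5.26 and 8.295 TPM in bromobenzene kidneys. The groups overlapped in 3 pairs, because the lowest vehicle library was below the 3 highest bromobenzene libraries. This member was also lower at 5 h on the mean, with an edgeR log2 change of -0.65 (SE 0.22, edgeR adjusted p = 0.159), which did not pass. Its 5 h levels ran from 6.61 to 16.4 TPM after vehicle and from 3.73 to 8.52 TPM after bromobenzene.

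The member ranked 3 (2012 bases) was at 10.6, 13.55 and 16.99 TPM (lowest, median, highest) in 10 h vehicle kidneys and at 5.41, 6.66 and 10.2 TPM in 10 h bromobenzene kidneys, with no overlap. At 5 h its libraries were widely spread in both groups, from 5.87 to 16.6 TPM after vehicle and from 5.76 to 17.3 TPM after bromobenzene. The member ranked 4 (5193 bases) had 3.66, 5.22 and 6.71 TPM after vehicle and 1.89, 2.425 and 3.89 TPM after bromobenzene at 10 h, with 1 crossing pair. Its 10 h bromobenzene mean, 2.75 TPM, was the lowest of the kidney groups, and its 10 h and 5 h vehicle means were close to each other at 5.32 ± 1.01 and 5.00 ± 1.35 TPM.

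The member ranked 5 (1739 bases) joined a high kidney level to near absence from liver. It stood at 91.1, 111.7 and 145.3 TPM in 10 h vehicle kidneys and at 43.4, 71.3 and 73.02 TPM in 10 h bromobenzene kidneys, without overlap. Vehicle livers held 0.131 ± 0.210 TPM at 5 h. At 5 h its kidney levels were 106.3 TPM (median) after vehicle and 91.2 TPM after bromobenzene, and the edgeR log2 change of -0.17 (SE 0.12, edgeR adjusted p = 0.565) did not pass.

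The member ranked 6 (4617 bases) had a narrow vehicle group at 10 h, from 14.96 to 17.96 TPM, and a wide bromobenzene group, from 4.73 to 15.4 TPM. The member ranked 7 (573 bases) was at 134.8, 153.0 and 170.6 TPM in 10 h vehicle kidneys and 66.6, 92.3 and 141.2 TPM in 10 h bromobenzene kidneys, and was listed at 0 in all 8 vehicle livers of 10 h. The members ranked 8 to 12 had 10 h differences from -0.65 to -0.60, or 1.565-fold to 1.515-fold lower means. Of these, the members ranked 10 and 11 had no overlap at 10 h. The former stood at 106.9, 129.4 and 152.1 TPM after vehicle and 73.7, 83.4 and 103.2 TPM after bromobenzene, and the latter at medians of 21.3 and 13.6 TPM, with at most 24.5 TPM after vehicle and at most 16.1 TPM after bromobenzene.

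Among the 6 members with the highest mean kidney level were the one ranked 7 and those ranked 51, 59, 64, 82 and 91. Their 10 h differences, apart from the member ranked 7, lay between -0.38 and -0.30. The member ranked 59 (879 bases) had the highest level of all members, with a mean of 204.3 TPM over the kidney libraries, and stood at 215.7, 245.0 and 262.7 TPM after vehicle and 164.3, 190.9 and 216.3 TPM after bromobenzene at 10 h. The member ranked 82 (3561 bases) was at 150.2, 164.3 and 187.4 TPM after vehicle and 105.8, 137.4 and 142.8 TPM after bromobenzene, without overlap. Over all members the median kidney level was 15.4 TPM, against 12.1 TPM for all kidney transcripts, with 26 members under 10 TPM, 57 from 10 to 100 TPM and 9 at 100 TPM or more. Their median length was 1981 bases (quartiles 1468 and 3478), against 2032 (1290 and 3186) for all kidney transcripts.

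**Figure D2:**
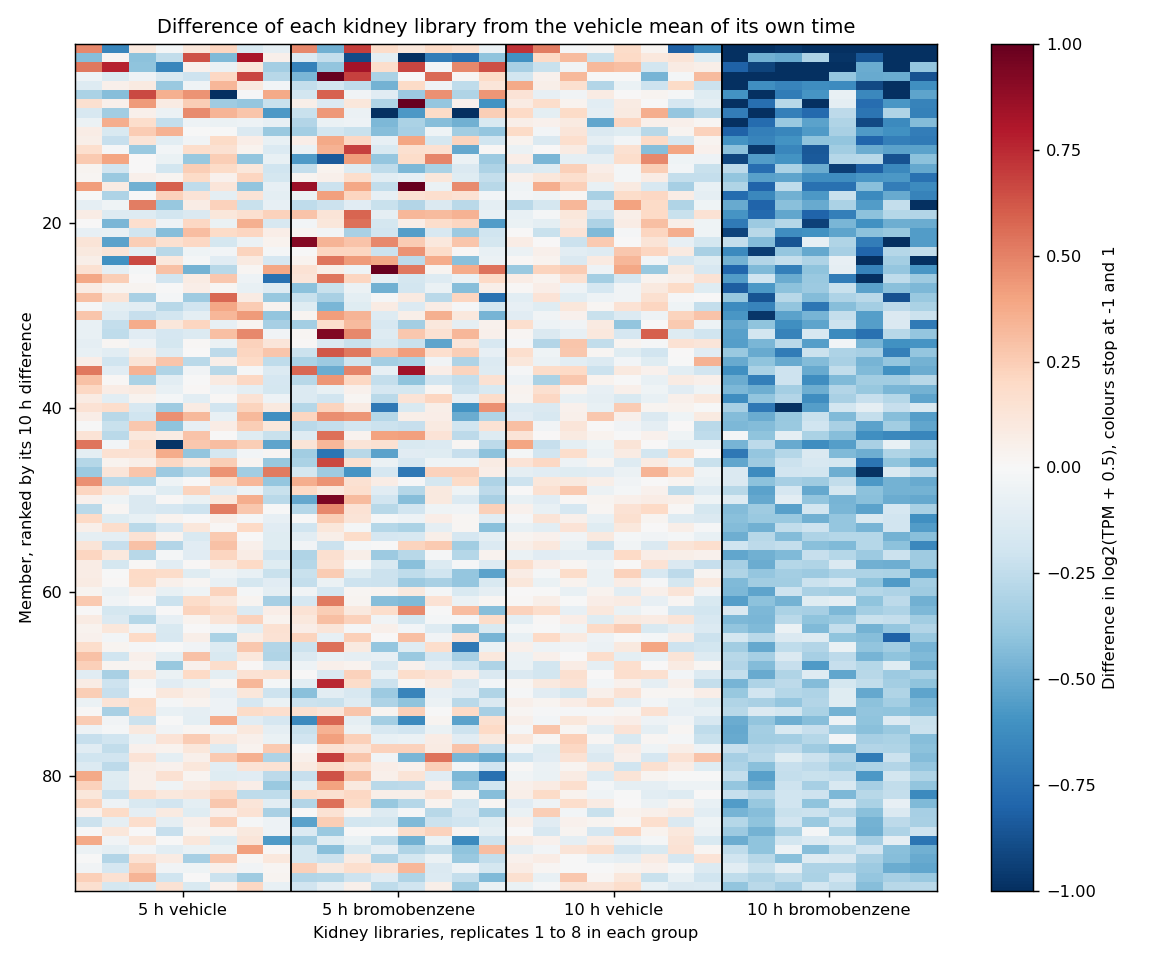
Difference of each kidney library from the vehicle mean of its own time, in log2(TPM + 0.5), for the 92 members (rows, by rank) in 32 kidney libraries (columns). The 8 bromobenzene libraries of 10 h are blue for 92 of 92 members, a contrast that the choice of members used. In these libraries 46.4% to 68.6% of all kidney transcripts were below the vehicle mean. The 5 h bromobenzene libraries hold both colours.

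The 5 h kidney libraries took no part in the 10 h contrast that chose the members, so bromobenzene against vehicle at 5 h could be tested for them. At 5 h the members were mostly close to vehicle. All 92 entered the edgeR quasi-likelihood fit of 20004 kidney transcripts. Of these members 2 (2.17%) fell at an adjusted p under 0.05, against 0.14% of all transcripts tested, and 0 rose, against 0.235%. This fit takes its spread from the 10 h libraries as well. With the 5 h groups alone edgeR called 0 members and 0 of 19019 transcripts. At an unadjusted p under 0.05 were 23 members (20 lower and 3 higher), against 1962 transcripts (935 lower and 1027 higher). At a pseudocount of 0.5 limma called 0 members and put 22 (18 lower and 4 higher) at an unadjusted p under 0.05. Over all 20004 transcripts it put 2417 there (774 lower and 1643 higher). DESeq2 called 9 members, all lower, against 162 transcripts lower and 222 higher. The members' median log2 change was -0.07, against a median of 0.00 over all tested. The change was negative in 59 members (64.1%) and positive in 33. Over all tested 48.9% were negative, and over those with at least 2 TPM 52.5%. At an unadjusted p under 0.05, 24 members (26.1%) were lower, against 7.23% of all transcripts tested and 8.79% of those with at least 2 TPM. At the same threshold 4 (4.35%) were higher, against 6.8% and 6.61%.

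The members that fell at 5 h were those ranked 59 and 72. The member ranked 59 was at 183.0, 209.2 and 235.7 TPM in 5 h vehicle kidneys and at 158.4, 177.0 and 198.1 TPM in 5 h bromobenzene kidneys, with overlapping ranges. The log2 change between these groups was -0.28, with an SE of 0.06 and an edgeR adjusted p of 0.0358. The member ranked 72 (2634 bases) was at 27.4, 30.2 and 35.2 TPM after vehicle and 23.3, 26.5 and 29.6 TPM after bromobenzene, again with overlap, and changed by -0.26 (SE 0.06, edgeR adjusted p = 0.0442). Both calls were lost under many alternatives, while the changes themselves moved little. They ended with limma at either pseudocount, with the 5 h groups alone and with the library-number run as a covariate, and that of the member ranked 72 also with no filter on low counts. For the member ranked 59 the call also ended without 5 h vehicle replicate 1, 2, 3 or 4 or 5 h bromobenzene replicate 3, 5 or 7, and over 24 alternatives its log2 change stayed between -0.32 and -0.24 with an edgeR, DESeq2 or limma adjusted p from 0.00406 to 0.242. For the member ranked 72 it ended without vehicle replicate 1, 2, 3, 4 or 5 or bromobenzene replicate 1, 3, 4, 5 or 7, with changes between -0.30 and -0.21 and an adjusted p from 0.00673 to 0.242 by the same tools.

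**Figure D3:**
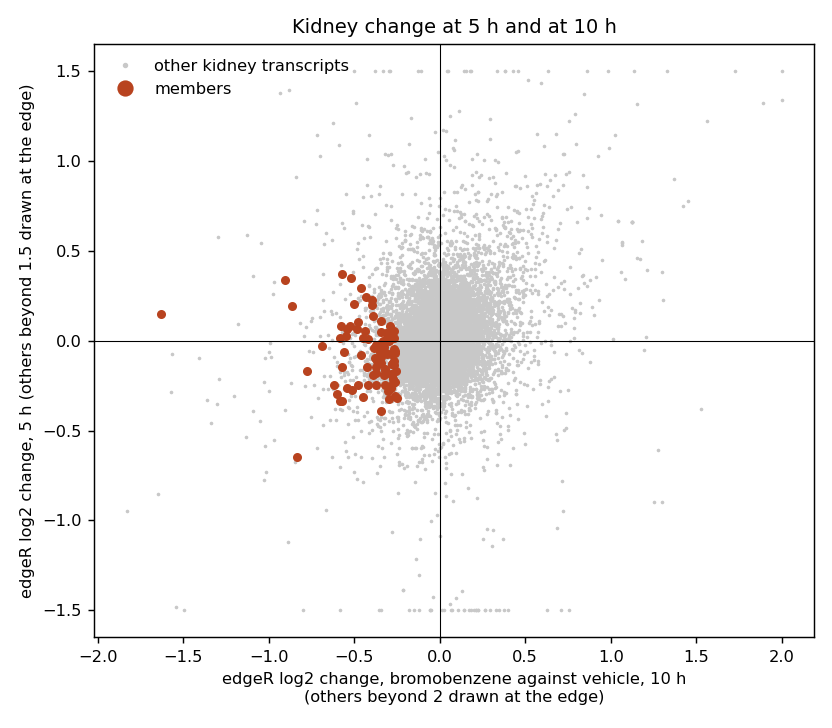
edgeR log2 change of bromobenzene against vehicle in kidney at 10 h (horizontal) and 5 h (vertical) for members and other kidney transcripts. Members lie left of 0 at 10 h because they were chosen there. At 5 h they spread from -0.65 to 0.37 with 59 of 92 (64.1%) below 0, against 52.5% of all kidney transcripts.

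Several of the members with the most negative 10 h difference were not lower at 5 h. The member ranked first had a 5 h log2 change of 0.15 (SE 0.19, edgeR adjusted p = 0.779), that ranked 3 had 0.19 (SE 0.22, adjusted p = 0.738) and that ranked 4 had 0.34 (SE 0.21, adjusted p = 0.4805), none of which passed. The member ranked 10, at 101.1 to 131.8 TPM after bromobenzene and 104.6 to 173.2 TPM after vehicle, had -0.34 (SE 0.09, edgeR adjusted p = 0.0589), just outside the threshold. Their 10 h log2 changes in the same edgeR fit, which describe the contrast that chose the members, were -1.63 (SE 0.19), -0.86 (SE 0.22), -0.91 (SE 0.21) and -0.57 (SE 0.09) in the same order. The difference between the times was not tested, because it contains that contrast.

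The median over members was taken in each kidney library against the vehicle mean of its time. At 5 h, bromobenzene replicates 1, 4, 5, 7 and 8 lay between -0.15 and -0.13, replicate 6 at 0.01, and replicates 2 and 3 at 0.12 and 0.09, while vehicle libraries ran from -0.10 to 0.085. The groups overlapped. Over all kidney transcripts, bromobenzene replicates 2 and 3 were also the highest of their group, at 0.15 and 0.10, so the members' medians moved with those of the whole library there. At 10 h the members' medians ran from -0.46 to -0.31 after bromobenzene and from -0.08 to 0.05 after vehicle, with all transcripts from -0.09 to 0.02 and from -0.07 to 0.03. The members together made up 0.267% ± 0.0125 (SD, n = 8) of TPM in 10 h bromobenzene kidneys, 0.360% ± 0.0117 in 10 h vehicle kidneys, 0.3065% ± 0.0227 in 5 h bromobenzene kidneys and 0.324% ± 0.0158 in 5 h vehicle kidneys.

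**Figure D4:**
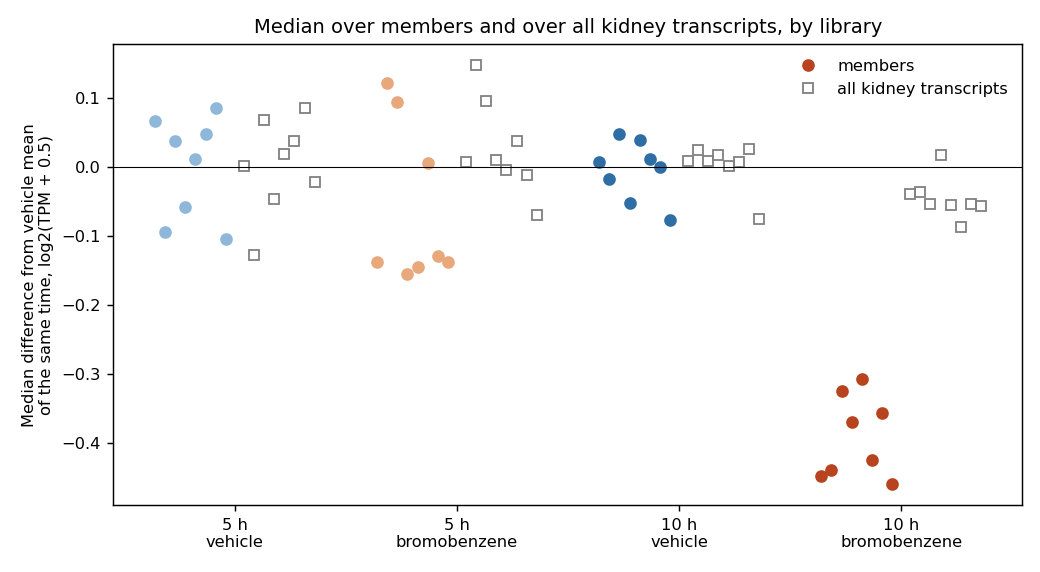
Median difference from the vehicle mean of the same time, in log2(TPM + 0.5), over members (filled) and over all kidney transcripts (open squares), 1 point per library. The 10 h bromobenzene libraries lie from -0.46 to -0.31 for members, a contrast used to choose them, and the 5 h groups overlap.

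The kidney libraries carry unbroken numbers from 33 to 64, which were divided here into a first run (33 to 50) and a second (51 to 64). The sample labels mark no break there and name no batch. The groups are unevenly spread over these runs. At 10 h the median difference of members was -0.38 in the first run (5 bromobenzene and 6 vehicle libraries) and -0.39 in the second (3 and 2). In each run 92 of 92 members were negative. These libraries chose the members, so the 10 h values restate the choice. Over all kidney transcripts the 10 h medians were -0.044 and -0.037. At 5 h the median difference of members was 0.05 in the first run (2 and 5 libraries), with 42 members below 0. In the second (6 and 3) it was -0.07, with 62 below 0. The 5 h medians over all kidney transcripts were 0.09 and -0.02. With the run as a covariate, edgeR called 0 members and 71 transcripts at 5 h. At an unadjusted p under 0.05 were 27 members (24 lower and 3 higher), against 2873 of 20004 transcripts (1346 lower and 1527 higher). DESeq2, without the covariate, called 9 members and 384 transcripts.

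Vehicle and bromobenzene kidneys were also set side by side over time. These values share the 10 h libraries that chose the members, which favours high vehicle and low bromobenzene levels at 10 h, and they are given without a test. In 63 of 92 members the mean was higher at 10 h than at 5 h after vehicle and lower after bromobenzene, a pattern seen in 29.1% of all kidney transcripts. In 15 members both agents had higher means at 10 h, against 41.4% of all kidney transcripts, and in 14 both had lower ones, against 20.1%. The median difference between 10 h and 5 h was 0.19 after vehicle and -0.17 after bromobenzene, against 0.07 and 0.00 over all kidney transcripts. The 10 h vehicle mean was the highest of the 4 kidney groups in 75 members, and the 10 h bromobenzene mean the lowest in 73. The choice of members favours both, and the same counts were not made over all kidney transcripts, so they show no trait of the members.

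Single members differed in which group stood apart over time. The member ranked first had a vehicle difference over time of 1.43 and a bromobenzene difference of -0.30. The member ranked 4 had 0.10 and -1.03. The member ranked 16 was lower at 10 h in both groups, by -0.79 after vehicle and by -1.66 after bromobenzene, from medians of 12.2 and 13.85 TPM at 5 h to 6.55 and 4.15 TPM at 10 h. The member ranked 87 was higher at 10 h in both, by 0.50 and 0.47, and its gap to vehicle was of like size at 5 h, with a log2 change of -0.32 (SE 0.09, edgeR adjusted p = 0.1085), which did not pass.

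Compared with liver, 87 of 92 members (94.6%) had the higher level in kidney in vehicle rats at 5 h. The share was 84.8% over all kidney transcripts and 87.1% over those that met the liver conditions. The difference between the organs had a median of 2.58 on the log2(TPM + 0.5) scale, against 0.87 for all kidney transcripts, and 21 members (22.8%) were at least 16-fold higher in kidney, against 4.32% of all kidney transcripts and 4.55% of the 12426 that met the liver conditions. The conditions bear on this comparison. Of 1208 kidney transcripts under 0.5 TPM in all 4 liver groups, 1187 met the liver conditions, since a given fold moves a transcript near 0 only a little on this scale. Among members, 25 were under 0.5 TPM in all 4 liver groups, of which 13 passed the filter on low counts in liver, and 41 were under 2 TPM, of which 28 passed it. The liver differences of members had medians of -0.04 at 5 h and -0.04 at 10 h, inside the limits that the conditions set.

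**Figure D5:**
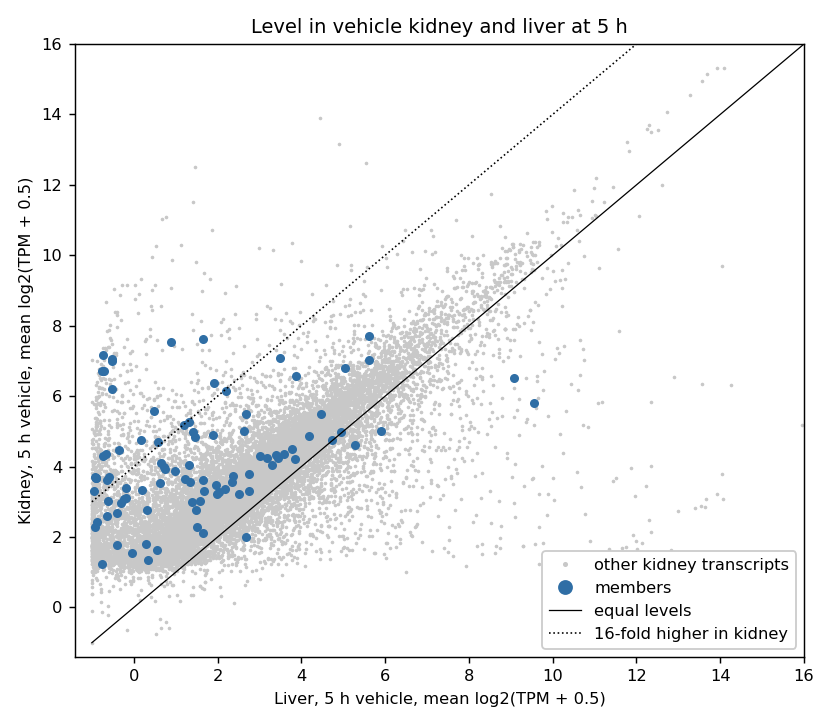
Mean log2(TPM + 0.5) in 5 h vehicle liver (horizontal) and 5 h vehicle kidney (vertical), for members and other kidney transcripts, with lines at equal levels and at a 16-fold higher kidney level. Of 92 members, 87 lie above the line of equal levels and 21 on or above the 16-fold line. Of all kidney transcripts, 84.8% and 4.32% do.

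Members with the higher level in liver were those ranked 12, 24, 45, 84 and 92. The member ranked 45 (2017 bases) was at 759.6 ± 113.6 TPM in 5 h vehicle livers and 55.9 ± 9.07 TPM in 5 h vehicle kidneys. At 10 h its kidney levels were 51.8, 59.03 and 67.7 TPM after vehicle and 35.9, 45.9 and 53.5 TPM after bromobenzene. One 5 h vehicle kidney, replicate 4, held 1.81% of its TPM in liver-enriched transcripts (at least 16-fold higher in liver and at 5 TPM or more in vehicle rats of the other time), against 0.205% to 0.282% in the other 5 h vehicle kidneys. The member ranked 45 was highest there, at 71.6 TPM, and its 5 h difference was -0.35 with this library and -0.29 without it. In 10 h kidneys, where members were chosen, the liver-enriched share was 0.207% to 0.235% after bromobenzene and 0.212% to 0.2435% after vehicle.

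In liver, vehicle rats of 10 h were compared with those of 5 h. The same vehicle livers entered the liver conditions that members had to meet, so this comparison is not independent of the choice. Bromobenzene livers are not compared in it, but they entered the filter on low counts and the estimate of the spread. With only the vehicle libraries 7 members and 2261 transcripts were called, against 6 and 1634 in the fit of all livers. Of 79 members that passed the filter on low counts in liver, 5 (6.33%) rose and 1 (1.27%) fell at an edgeR adjusted p under 0.05, against 4.32% and 5% of 17535 transcripts tested. Among the 11507 tested kidney transcripts that met the liver conditions the shares were 4.35% and 3.97%. The members' shares are near the background or below it. Higher at 10 h were the members ranked 43, 67, 71, 72 and 87. The member ranked 87 (1938 bases) went from 24.1, 33.3 and 48.4 TPM at 5 h to 64.3, 79.7 and 87.4 TPM at 10 h in vehicle liver, a log2 change of 1.20 (SE 0.14, edgeR adjusted p = 2.54e-07), without overlap. The member ranked 67 (3446 bases) went from 14.6, 23.5 and 29.9 TPM to 36.6, 42.96 and 45.9 TPM, a change of 0.94 (SE 0.14, edgeR adjusted p = 1.05e-05). The member ranked 71 (1950 bases) changed by 1.16 (SE 0.17, edgeR adjusted p = 1.05e-05), from medians of 2.10 to 5.00 TPM. In vehicle kidney these 3 members had higher means at 10 h as well, by 0.50, 0.20 and 0.48. So did 84.8% of members and 70.4% of all kidney transcripts.

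In the fit of the contrast that chose the members, 35 of 92 (38%) were lower at 10 h at an edgeR adjusted p under 0.05, against 0.32% of all transcripts tested, and 0 were higher, against 0.305%. This restates the choice. Kidney depth ran from 16.98 to 24.1 mega-counts (SI prefix) of estimated counts and liver depth from 13.8 to 28.3. Members had a median of 548.5 estimated counts per kidney library, and 2 had a median under 50. Detected transcripts ranged from 22699 to 23494 in 10 h bromobenzene kidneys and from 22527 to 23484 in 10 h vehicle kidneys.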

How the data were processed

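Libraries were stranded, from poly-A RNA, and read as 150-base pairs, per the labels' protocols. The submitters' processing notes name kallisto 0.42.4 and the build Rnor_6.0; annotation release, trimming and filters are unstated in the sources used here. The authors deposited estimated counts, without normalization; reads that several transcripts share are divided among them, so values need not be whole and isoforms and near-identical paralogs are uncertain. The TPM values deposited beside them are scaled to a fixed sum per library.

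The membership conditions were applied to log2(TPM + 0.5). For tests, estimated counts were rounded, filtered (filterByExpr with at least 10 counts and a total of 15), TMM-normalized and fitted per transcript with edgeR 4.0.16 (robust glmQLFit, glmQLFTest) in R 4.3.3, in 1 fit of 32 libraries per organ, with Benjamini-Hochberg adjustment over all transcripts. A call needs an adjusted p under 0.05. Alternatives used DESeq2 1.42.0, limma 3.58.1, other scalings and left-out libraries. The kidney 5 h test was also run on simulated counts with the spread of the kidney fit. Those counts hold no shift of whole libraries, and the outcome is not given here. All 224 same-group pairs of libraries differed by more than counting noise, with chi-square over its degrees of freedom at 9.81 or above. Intervals of reads without molecular identifiers cover counting error only.

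The members and lists were chosen with earlier results of these data known. The rule for members described named the first 12 by 10 h difference, the 6 with the highest level, those called at 5 h and those nearest the limits; others were singled out after their values were seen. Lists of kidney genes and markers were not used, because the gene table holds no Ensembl IDs. Replicates are numbered in record order and pair no libraries.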

Additional observations from a re-analysis of the deposited data

Results flagged for a closer look

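In 80 groups of 8 kidney libraries (the described members, the median over members and the liver-enriched share in each group), 9 held a library far from the others of its group, and chance alone flags about 1 group in 20. The liver-enriched share of TPM was 1.81% in 5 h vehicle replicate 4, against at most 0.282% in the others, and 0.491% in 5 h bromobenzene replicate 1, against at most 0.305%. The member ranked 4 was at 14.1 TPM in 5 h bromobenzene replicate 2 (others up to 8.13) and at 8.06 TPM in 5 h vehicle replicate 7 (others up to 5.70). The member ranked 7 was at 302.8 TPM in 5 h bromobenzene replicate 5, against 95.3 to 156.5 TPM in the others. The member ranked 82 was at 94.1 TPM in 5 h bromobenzene replicate 8, below the 129.4 to 146.7 TPM of the others, in the kidney library with the fewest detected transcripts (21220). At 10 h, bromobenzene replicate 5 was high for the member ranked 10 (103.2 TPM, others 73.7 to 87.4) and for the member ranked 72 (34.5 TPM, others 27.3 to 30.4). The member ranked 9 was at 16.1 TPM in 10 h vehicle replicate 4, against 23.6 to 27.1 TPM in the other vehicle kidneys.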

How the results depend on the processing

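The number of members was 44 on TMM-scaled CPM, 40 with the 10 h limit at -0.4, 89 and 78 with pseudocounts of 1 and 0.1, and from 91 to 148 with one 10 h kidney library left out (148 without vehicle replicate 8). Of the 92, 82 to 91 remained members when a library was left out, and 70 did so under all 16. The limit on the number of crossing pairs was not lowered in these runs, although fewer pairs were left. Leaving out a library cannot add a crossing pair, so members could not fail that limit. These runs therefore tested retention on the other conditions only, and their member counts come from a looser rule. The 2 members called at 5 h became 9 with DESeq2, 6 without vehicle replicate 4 and bromobenzene replicate 8, 1 with no filter on low counts, and 0 with limma at either pseudocount, with the 5 h groups alone or with the library-number run as a covariate. With single 5 h libraries left out they ran from 0 to 9. The 75 kidney transcripts called at 5 h became 384 with DESeq2 and 25 with limma at either pseudocount. They became 360 without those 2 libraries and 43 with no filter. With the 5 h groups alone 0 were called, while 23 members and 1962 of 19019 transcripts had an unadjusted p under 0.05. With single libraries left out the calls ran from 8 to 448. The cause was not tested. The members' median 5 h change stayed between -0.10 and -0.04 over 24 alternatives, and 18 to 28 members were lower at an unadjusted p under 0.05. Over all transcripts tested, 763 to 1949 were lower at that threshold. In vehicle liver over time, 6 or 7 members were called under 4 alternatives in place of 6. Sums per gene were not run, because the IDs could not be paired with genes. No paired analysis was run, because the labels give no replicate numbers and tie no libraries to animals. Liver and kidney libraries follow the same order of time and agent in the record, but whether this order pairs them by rat is not stated.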

Other observations

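Members did not vary together much more than other kidney transcripts once group means were removed. Over the 16 kidney libraries of 5 h, the median Pearson correlation between pairs of members was 0.14 (quartiles -0.09 and 0.37), against 0.12 (-0.11 and 0.34) between pairs of 1889 kidney transcripts taken at even steps through the table. Over the 16 libraries of 10 h it was 0.10 against 0.04. Pairs share their libraries and their scaling, and the values are a description.

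Before the liver conditions, the kidney conditions chose 125 transcripts that were lower and 24 that were higher after bromobenzene on the TPM scale, and 62 and 51 on TMM-scaled CPM.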
